A study of Mus musculus with 4 samples.

Results

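Tumor necrosis factor (TNF) and the nuclear factor-κB (NF-κB) system were examined in injured and sham-operated mouse cartilage through 10 genes, chosen by symbol from the 24532 genes of the expression table. They were the ligand gene Tnf, its receptor genes Tnfrsf1a and Tnfrsf1b, and the NF-κB subunit genes Nfkb1, Nfkb2, Rela and Relb. The others were the inhibitor genes Nfkbia and Tnfaip3, and Nfkbiz, which encodes a nuclear protein that acts with the NF-κB subunit p50. All 10 were present in the table and were above 0 in each library. At 3 days after injury, Tnf, Tnfrsf1b and Nfkbiz were at least 2-fold higher than in sham cartilage in both young and adult mice. Tnf in adults was close to this threshold, at a log2 ratio of 1.07, and fell below it, at 0.97, after median-of-ratios scaling. The subunit genes, Nfkbia, Tnfaip3 and Tnfrsf1a were less than 2-fold different from sham at either age when 1 FPKM was added to each level.

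The 4 RNA-seq libraries came from articular cartilage of wild type C57BL/6 mice, with 1 library from pooled male mice in each of 4 groups, which were sham and injured cartilage of young mice and sham and injured cartilage of adult mice. Values listed without group names below follow that order. Young mice were 3 weeks old. Adult mice were 12 weeks old by the sample titles and 14 weeks by another label of the same samples, and the study's methods give a further age. Injured cartilage was taken on day 3, young sham cartilage on day 3 and adult sham cartilage on days 3 to 14, so that in adult mice the day of sampling cannot be told apart from injury. The labels name the surgery as DMM, whereas the methods describe a full-thickness needle injury of the femoral groove. With 1 library per group there is no estimate of the spread between mice, and no p-value, SD or SE was calculated. Each difference below compares 2 libraries.

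TNF is a cytokine released mainly by macrophages and other immune cells. It binds TNFR1, the widely expressed receptor encoded by Tnfrsf1a, and TNFR2, the receptor of mainly immune and endothelial cells encoded by Tnfrsf1b. Receptor binding activates the IκB kinase (IKK), which marks IκBα, the product of Nfkbia, for degradation and frees NF-κB dimers such as RelA with p50 to enter the nucleus. Nfkbia and Tnfaip3 are themselves NF-κB targets and act as brakes. In joints, TNF and NF-κB are known for inducing matrix-degrading enzymes in chondrocytes and for osteoclast formation.

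The values are FPKM, that is fragments divided by transcript length and by the mapped fragments of the library, which can be compared between genes because they are divided by length. Differences are log2 ratios of FPKM + 1, which understate the change of genes below a few FPKM. A gene was counted as different at 2-fold or more on this scale, and shares are given of the 18181 genes above 0 in at least 1 library. If the smallest step of the values is 1 fragment, the libraries hold about 25600000 to 30800000 fragments. The median of 10891 genes of at least 1 FPKM in all libraries was −0.04 after injury in young mice, 0.23 after injury in adult mice and −0.30 in adult against young sham, so the scaling of the adult sham library bears on its comparisons. After median-of-ratios scaling the corresponding medians were −0.05, −0.06 and 0.07, and values on this scale are given beside some of the results that it moved. The 12 chondrocyte markers were at 1 FPKM or more in every library and summed to 13329 to 20511 FPKM. The tissue was not chondrocytes alone, since markers of macrophages, neutrophils, red cells, bone and muscle were also present. In bulk tissue, fewer cells of a type and less RNA per cell cannot be told apart.

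The sequences before the start sites are shown first for Tnf and Tnfrsf1b, which are 2 of the 3 genes past 2-fold after injury, and then for the inhibitors Nfkbia and Tnfaip3, whose promoters are textbook NF-κB targets. Each is the 130 bases upstream of a start in RefSeq on GRCm38 (mm10), 5′ to 3′ on the gene's strand, with matches to the 10-base κB consensus in capitals.
Tnf (minus strand, chr17:35202008-35202137): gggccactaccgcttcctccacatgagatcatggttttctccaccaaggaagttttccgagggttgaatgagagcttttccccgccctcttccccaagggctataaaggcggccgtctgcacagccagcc
Tnfrsf1b (minus strand, chr4:145246871-145247000): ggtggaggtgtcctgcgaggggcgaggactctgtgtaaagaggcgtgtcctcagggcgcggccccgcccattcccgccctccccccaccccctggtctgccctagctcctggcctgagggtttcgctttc
Nfkbia (minus strand, chr12:55492648-55492777): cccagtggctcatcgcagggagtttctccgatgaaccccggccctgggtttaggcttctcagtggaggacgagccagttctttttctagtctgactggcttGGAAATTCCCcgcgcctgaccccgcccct
Tnfaip3 (minus strand, chr10:19015411-19015540): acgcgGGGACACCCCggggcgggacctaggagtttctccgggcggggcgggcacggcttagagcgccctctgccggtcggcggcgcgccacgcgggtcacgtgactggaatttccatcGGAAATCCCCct
The consensus was searched on both strands in the 250 bases before the start. Promoters of 7 of the 10 genes were matched in the RefSeq table, and those of Nfkb1, Relb and Nfkbiz were not analysed here. Nfkbia, Tnfaip3 and Nfkb2 held a match, as did 4.46% of 27025 genes with a promoter. The matches of Tnfaip3 lay before the start printed above, and the other listed Tnfaip3 start had none. The 2 stretches matched before the first listed Nfkb2 start read GGGAATTCCCC, which holds overlapping matches, and GGGGCTTTCC. Both lie within the annotated span of Nfkb2, which begins upstream of this start. Tnf, Tnfrsf1a, Tnfrsf1b and Rela had no match in this window, which says nothing about sites elsewhere. A match is a run of letters and not evidence of binding.

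Injury was followed by higher levels of all 10 genes in young mice, as for 47.4% of all genes, and 3 of the 10 passed 2-fold against 4.57% of all genes. Their median log2 ratio was 0.44, beside 0.00 for all genes. In adult mice all 10 were again higher, as for 67.2% of all genes, 3 passed 2-fold against 6.9%, and the median was 0.71 beside 0.14 for all genes. None was 2-fold lower, against 1.27% of all genes in young mice and 1.46% in adults. The 3 genes were the same at both ages, and 3.01% of all genes were 2-fold higher at both ages. All 10 genes reached 1 FPKM in 1 or more libraries. Of the 13209 genes that did so, 6.28% were 2-fold higher in young mice and 9.5% in adults. After median-of-ratios scaling, 7 genes were above 0, against 48.1% of all genes, and 2 passed 2-fold in adult mice, with a median of 0.45, while among all genes 4.41% were then 2-fold higher and 2.9% lower. The young counts were the same under that scaling, with 4.36% of all genes higher and 1.24% lower. At 1.5-fold, 3 of the 10 genes were higher in young mice against 9.5% of all genes, and 6 in adults against 17.9%.

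**Figure D1:**
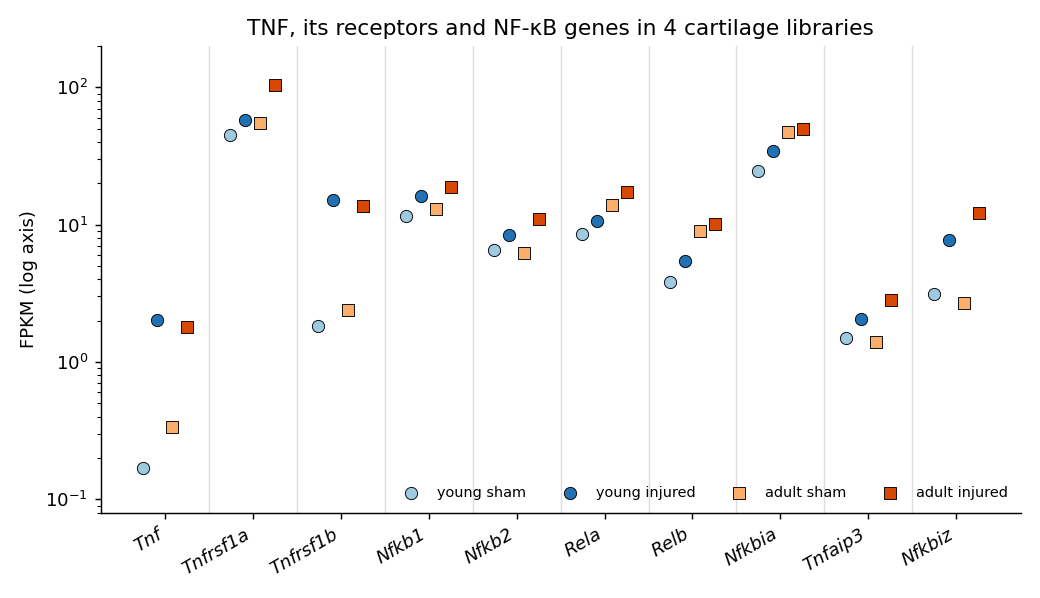
FPKM (log axis) of the 10 genes in the 4 libraries, 1 point per library with no error bars because each group is 1 library. Tnf, Tnfrsf1b and Nfkbiz show the widest gap between sham and injured points, and Tnfrsf1a is the highest gene and Tnf the lowest in each library.

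Tnf (gene ID 21926, chr17:35199367-35202007, minus strand) had the lowest level of the 10 genes in every library. Its level was 0.168 FPKM in young sham and 2.02 in young injured cartilage, and 0.335 and 1.81 in adult sham and adult injured cartilage. Both injured libraries were above both sham libraries, and the injured levels of the ages were close, with a log2 ratio of 0.10 in young against adult. The FPKM ratio of injured to sham was 12.0 in young mice and 5.41 in adults, and the log2 ratios were 1.37 and 1.07. The young sham level would rest on about 7.20 fragments and the adult sham level on about 16.9, if the smallest step is 1 fragment, so the ratios depend on small numbers in the sham libraries. The adult ratio was 0.97, below the threshold, after median-of-ratios scaling.

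The receptor genes behaved differently from each other. Tnfrsf1b (ID 21938, chr4:145212368-145246870, minus strand), encoding TNFR2, was at 1.83 FPKM in young sham and 14.99 in young injured cartilage, and 2.40 and 13.6 in adult sham and adult injured cartilage. The injured levels were 8.19 and 5.68 times the sham levels in young and adult mice, with log2 ratios of 2.50 and 2.11. On this scale these were the largest of the 10 genes, whereas the FPKM ratio without 1 FPKM added was larger for Tnf in young mice, at 12.0. Tnfrsf1a (ID 21937, chr6:125349723-125362483, plus strand), encoding TNFR1, had the highest level of the 10 genes throughout, at 44.9, 58.2, 55.2 and 103.3 FPKM. Its log2 ratio was 0.37 in young mice and 0.89 in adults, and the adult injured library stood above the other 3. Adult injured cartilage was higher than young injured cartilage by 0.82 on the log2 scale, less than 2-fold on the deposited scale. After rescaling each library to the same sum (TPM) it was the 1 gene of the 10 that was 2-fold lower in the young injured library, against 3.44% of all genes. The ratio of Tnfrsf1b to Tnfrsf1a within a library was 0.0408 in young sham and 0.0434 in adult sham, against 0.257 in young injured and 0.132 in adult injured cartilage. Tnfrsf1a transcripts were thus the more abundant in each library, and the ratio, which does not depend on scaling between libraries, was higher in both injured libraries.

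Among the subunit genes, Nfkb1 (ID 18033, chr3:135584655-135691969, minus strand), which encodes the p105 precursor of p50, was at 11.6, 16.1, 12.9 and 18.9 FPKM. Nfkb2 (ID 18034, chr19:46300994-46312400, plus strand), which encodes the p100 precursor of p52 of the non-canonical pathway, was at 6.52, 8.38, 6.17 and 10.9 FPKM. Injured levels of both genes were above sham at each age, with log2 ratios of 0.45 and 0.52 for Nfkb1 and 0.32 and 0.73 for Nfkb2 in young and adult mice. After median-of-ratios scaling the adult ratios were 0.20 and 0.44, and that of Nfkb1 was then below its young ratio of 0.43. Nfkb1 overlaps another gene on its own strand, so some of its fragments could be shared. Nfkb2 overlaps genes on the opposite strand, which a strand-specific library can separate, but whether strand was used in the counting is not given in the sources used here.

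Rela (ID 19697, chr19:5637442-5648134, plus strand), encoding the main activating subunit of the canonical pathway, was at 8.58, 10.7, 13.9 and 17.4 FPKM. Relb (ID 19698, chr7:19606217-19629438, minus strand), encoding the partner of p52, was at 3.81, 5.46, 9.03 and 10.03 FPKM. For both genes the adult libraries were above the young libraries, whether sham or injured. After injury, the log2 ratios were 0.29 in young mice and 0.30 in adults for Rela, and 0.43 and 0.14 for Relb. The adult ratios were −0.02 and −0.17 after median-of-ratios scaling, so their direction depended on the scaling.

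The 5 subunit genes, with Rel, the gene of c-Rel, summed to 31.4 FPKM in young sham and 42.2 in young injured cartilage, and 42.2 and 57.9 in adult sham and adult injured cartilage. The share of Relb was 12.1% in young sham and 13.0% in young injured, against 21.4% and 17.3% in the adult libraries. The share of Nfkb1 was 37.0% and 38.3% in the young libraries and 30.6% and 32.7% in the adult libraries. For both genes the 2 libraries of an age were closer to each other than to those of the other age. This was not so for Rela, at 27.4%, 25.4%, 33.0% and 30.1%, or for Nfkb2, at 20.8%, 19.9%, 14.6% and 18.9%. The share of Rel, named after its values were seen, was 2.75% and 3.54% in the young libraries and 0.298% and 1.09% in the adult libraries, and the 10 B cell markers summed to 66.9 and 93.9 FPKM against 15.4 and 24.0. The part of B cells in the level of Rel was not tested.

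**Figure D2:**
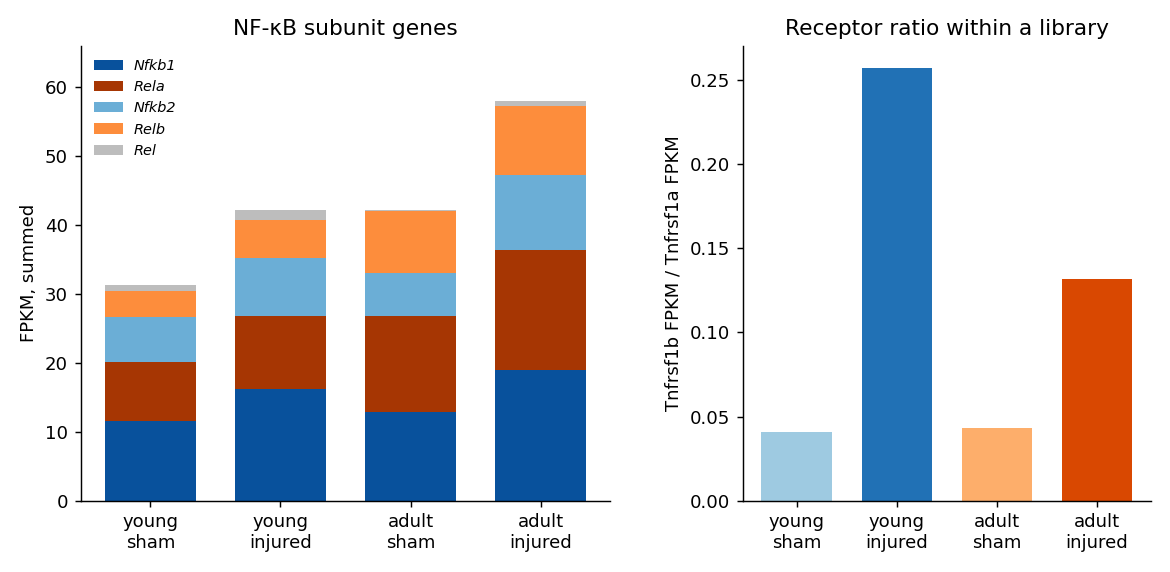
Left, FPKM of the 5 NF-κB subunit genes stacked for each library, from 31.4 in young sham to 57.9 in adult injured cartilage, with the Relb segment a larger share in both adult libraries. Right, Tnfrsf1b FPKM divided by Tnfrsf1a FPKM in each library, 0.257 and 0.132 in the injured libraries and below 0.05 in both sham libraries.

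The inhibitor genes and Nfkbiz split into genes of high and low sham level. Nfkbia (ID 18035, chr12:55489409-55492647, minus strand), encoding IκBα, was second in level of the 10 genes in each library, at 24.7 FPKM in young sham and 34.4 in young injured cartilage, and 47.3 and 49.9 in adult sham and adult injured cartilage. Both adult libraries were above both young libraries. Its log2 ratio after injury was 0.47 in young mice and 0.08 in adults, and the latter turned to −0.26 after median-of-ratios scaling. Its ratio to Rela within a library stayed between 2.86 and 3.39.

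Tnfaip3 (ID 21929, chr10:19000910-19015410, minus strand), encoding the ubiquitin-editing enzyme A20, was at 1.49, 2.04, 1.40 and 2.84 FPKM. The injured libraries were above both sham libraries, with log2 ratios of 0.29 in young mice and 0.68 in adults. The adult FPKM ratio was 2.04, but with 1 FPKM added the difference was under 2-fold. Nfkbiz (ID 80859, chr16:55811375-55838954, minus strand), encoding the nuclear protein IκBζ, which acts with p50 on secondary target genes, was at 3.14, 7.77, 2.66 and 12.1 FPKM. The injured levels were 2.47 times sham in young and 4.54 times sham in adult mice, with log2 ratios of 1.08 and 1.84. Of the 3 genes past 2-fold, it was the one with the larger ratio in adult mice.

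**Figure D3:**
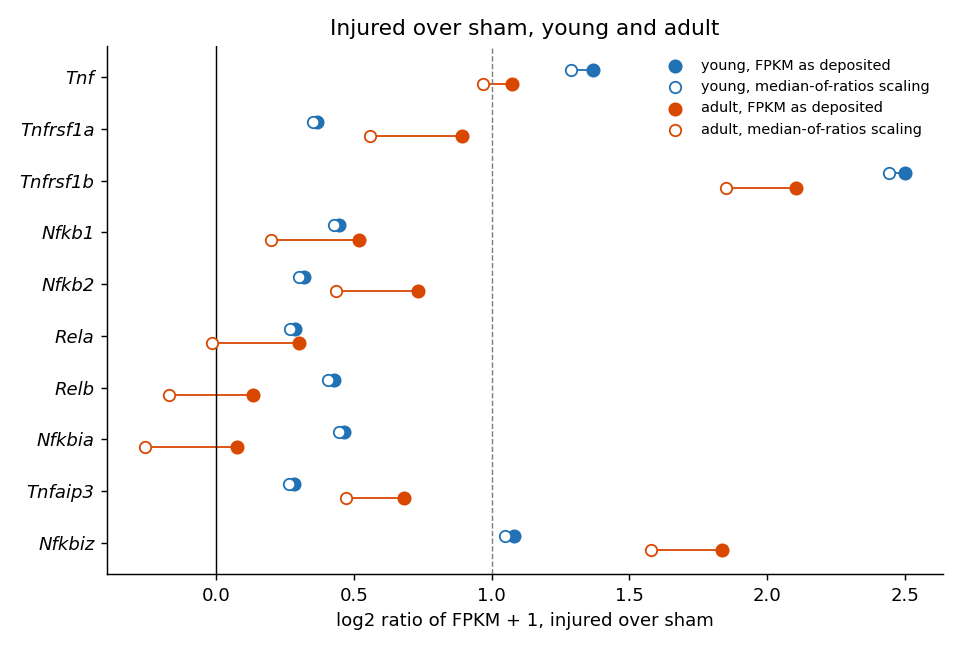
Log2 ratio of FPKM + 1 in injured over sham cartilage for the 10 genes in young (blue) and adult (orange) mice, with filled points for FPKM as deposited and open points after median-of-ratios scaling. The dashed line marks 2-fold, which Tnf, Tnfrsf1b and Nfkbiz passed at both ages as deposited, and the open adult points of Rela, Relb and Nfkbia lie below 0.

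The injury log2 ratio was larger in adult than in young mice for 6 of the 10 genes, as for 66.3% of all genes, and for 4 of the 10 after median-of-ratios scaling, when it was so for 49.3% of all genes. The difference, adult minus young, was 0.75 for Nfkbiz and 0.52 for Tnfrsf1a, and −0.39 for both Nfkbia and Tnfrsf1b. After median-of-ratios scaling these differences were 0.53, 0.21, −0.70 and −0.59. In young against adult injured cartilage no gene passed 2-fold in either direction, against 4.89% of all genes, 3 were 1.5-fold lower, against 5.51%, and 8 of the 10 were lower in the young library, where 56.5% of all genes were higher. The log2 ratios ran from −0.82 for Tnfrsf1a to 0.13 for Tnfrsf1b, with a median of −0.43 beside 0.04 for all genes.

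Adult sham cartilage was compared with young sham cartilage to show the levels without injury. Adult sham was sampled on days 3 to 14 and young sham on day 3, so age and day of sampling cannot be told apart here. Relb was 2-fold higher, with a log2 ratio of 1.06, against 2.66% of all genes higher and 10.6% lower. Nfkbia and Rela were next, at 0.91 and 0.64, and 7 of the 10 were above 0, against 29.7% of all genes, and none was 2-fold lower. These 3 genes were also the ones past 1.5-fold, against 6.54% of all genes higher. The median was 0.23, beside −0.15 for all genes. After median-of-ratios scaling, Relb, Nfkbia and Rela all passed 2-fold, at 1.44, 1.34 and 1.05, all 10 genes were above 0, against 47% of all genes, and 5.86% of all genes were 2-fold higher and 5.13% lower. Tnf, Tnfrsf1b, Nfkb1 and Tnfaip3 had log2 ratios of 0.19, 0.26, 0.14 and −0.06 on the deposited scale, and 0.29, 0.57, 0.55 and 0.21 after median-of-ratios scaling. Tnfrsf1a, Nfkb2 and Nfkbiz were at 0.29, −0.07 and −0.18 as deposited, and at 0.72, 0.31 and 0.15 after that scaling. Among marker lists, the 9 osteoblast genes summed to 828.5 FPKM in young sham and 5789 in adult sham, and the 15 macrophage markers to 216.5 and 341.9. The 7 muscle markers summed to 581.8 and 1275 FPKM. Of 12 chondrocyte markers 8 were 2-fold lower in adult sham and 1 was higher, at 2.44, with a median of −1.77. Of 7 erythroid markers 5 were lower and 1 was higher, at 4.75, with a median of −1.25. After median-of-ratios scaling 8 and 3 were lower and 2 and 1 higher, with medians of −1.33 and −0.81. Their part in these differences was not tested.

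Macrophage markers moved with Tnf and Tnfrsf1b. All 15 were 2-fold higher after injury at both ages, none was at 0 in any library, and their sum was 216.5 FPKM in young sham and 2042 in young injured cartilage, and 341.9 and 1755 in adult sham and adult injured cartilage. Adgre1, which encodes a macrophage surface receptor, was at 1.33, 30.3, 3.22 and 16.8 FPKM, and Csf1r, the receptor gene for colony-stimulating factor 1, at 7.90, 47.6, 17.1 and 55.0 FPKM. The most abundant markers were Lyz2, encoding lysozyme, at 141.5, 1271, 183.2 and 1090 FPKM, and the complement gene C1qb, at 9.57, 186.5, 43.5 and 144.4 FPKM. Per 1000 FPKM of the summed markers, a measure chosen after the values were seen, Tnf was at 0.775, 0.988, 0.980 and 1.03, and Tnfrsf1b at 8.46, 7.34, 7.01 and 7.76. The other 8 genes were lower in each injured library than in its sham on this measure, for example Tnfrsf1a at 207.2, 28.5, 161.5 and 58.9 and Nfkbiz at 14.5, 3.81, 7.79 and 6.89. A gene that rose less after injury than the marker sum must be lower on this measure, with or without Lyz2. Each of these 8 rose less than the full sum, so the count is not a trait of these genes. With 1 FPKM added, only 2.02% of all genes were even 3-fold higher in young mice and 2.43% in adults. Lyz2 made up most of the sum. Without Lyz2, Tnf was at 2.24, 2.61, 2.11 and 2.72, and Tnfrsf1b at 24.4, 19.4, 15.1 and 20.5. Nfkbiz was then at 42.0, 10.1, 16.8 and 18.2, so that in adults its direction turned, while the other 7 genes were still lower in each injured library than in its sham. Set against Csf1r alone, the Tnf ratio was 0.0212, 0.0424, 0.0196 and 0.0330 and the Tnfrsf1b ratio 0.232, 0.315, 0.140 and 0.248, both higher in the injured library at each age. The part of macrophages in the levels of Tnf and Tnfrsf1b was not tested.

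**Figure D4:**
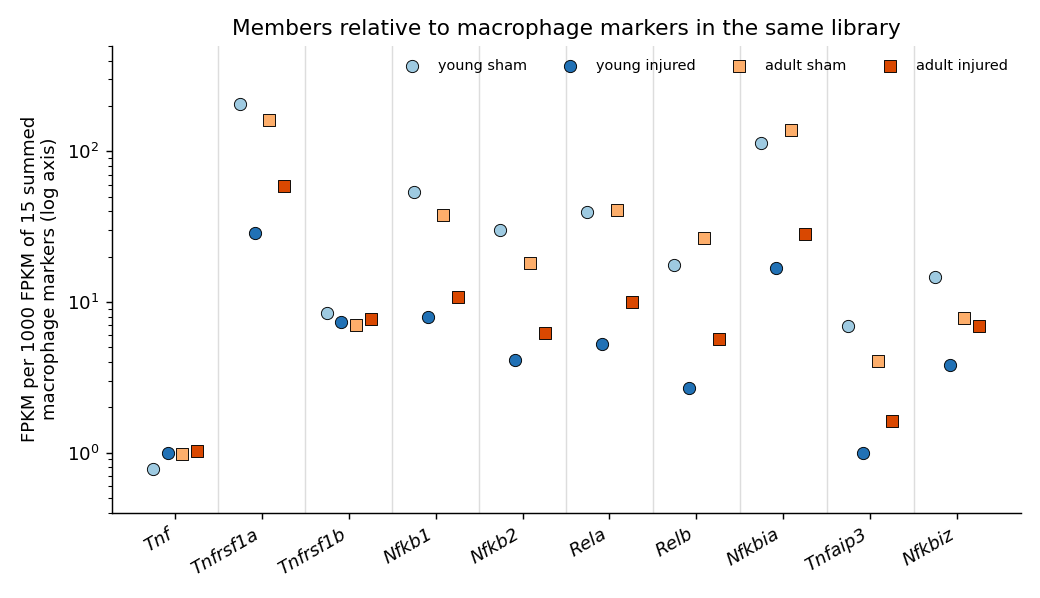
FPKM of each gene per 1000 FPKM of the 15 summed macrophage markers of the same library (log axis), 1 point per library. The points of Tnf lie between 0.775 and 1.03 and those of Tnfrsf1b between 7.01 and 8.46. The other 8 genes are lower in the injured than in the sham library at each age, as is any gene that rose less than the marker sum. For Nfkbiz in adults the direction turns when Lyz2 is left out of the sum.

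Markers of other cells also differed between the libraries. The 7 endothelial markers summed to 16.8, 82.8, 19.0 and 69.5 FPKM, and the 7 osteoclast markers to 215.1, 491.7, 320.6 and 1150. The 15 neutrophil markers, of which Lcn2 is also counted as an NF-κB target, summed to 1314, 3177, 1735 and 4118 FPKM, and the 7 fibroblast and synovial markers to 2073, 5228, 1907 and 7422. Without Lcn2 the neutrophil sums were 1249, 2538, 1652 and 2001 FPKM, highest in young injured cartilage. The osteoclast and fibroblast sums were highest in adult injured cartilage, as were the neutrophil sum with Lcn2 and the sum of the 9 osteoblast markers, at 6291 FPKM. So were 8 of the 10 genes, all but Tnf and Tnfrsf1b, and the part of those cells in the levels was not tested. The 9 T and NK cell markers summed to no more than 7.59 FPKM in any library. The 7 muscle markers summed to 581.8, 572.8, 1275 and 373.3 FPKM, and the 7 erythroid markers to 9674, 18440, 6955 and 3031. After injury in adults 6 of the 7 muscle markers were 2-fold lower, against 1.46% of all genes. After median-of-ratios scaling 7 were lower, against 2.9%. The 10 housekeeping genes had no member past 2-fold after injury, with medians of 0.29 and 0.39 in young and adult mice, and an adult median of 0.06 after median-of-ratios scaling.

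The remaining genes of the pathway were taken from 4 lists. Of 22 genes of the receptor complex and IKK, such as the adaptor Tradd, the ubiquitin ligase Traf2, the kinase Ripk1 and the IKK genes Chuk, Ikbkb and Ikbkg, none passed 2-fold after injury at either age, where 4.57% of all genes were higher in young mice and 6.9% in adults. All 22 were above 0 in each library, their log2 ratios ran from −0.56 to 0.74 in young and from −0.32 to 0.82 in adult mice, and the medians were 0.14 and 0.32. The adult median was 0.07 after median-of-ratios scaling.

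Of 13 other NF-κB subunits and inhibitors, 1 was 2-fold higher in young mice and 3 in adults, against 4.57% and 6.9% of all genes, and none was lower. Bcl3, which encodes a nuclear IκB protein that binds p50 and p52, passed at both ages. Its level was 1.17 FPKM in young sham and 10.1 in young injured cartilage, and 0.915 and 16.1 in adult sham and adult injured cartilage, and its log2 ratios were 2.35 and 3.16. The other 2 that passed in adult mice, named after their values were seen, were Nfkbid at 1.44, encoding a further nuclear IκB protein, and Nfkbie at 1.02, encoding the inhibitor IκBε. After median-of-ratios scaling Nfkbie was at 0.79, and 2 genes of the list passed in adults. The list medians were 0.27 and 0.40, and the adult median was 0.20 after that scaling.

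Of 14 genes of the non-canonical input, 3 were 2-fold higher in both young and adult mice, against 3.01% of all genes, and none was lower, with Cd40lg listed at 0 in every library. They were Cd40, a receptor of antigen-presenting cells, at 0.910, 3.57, 0.727 and 2.56 FPKM, Tnfsf11, encoding the osteoclast cytokine RANKL, at 0.444, 2.72, 1.00 and 3.08 FPKM, and its receptor gene Tnfrsf11a at 0.239, 2.61, 0.414 and 2.33 FPKM. The log2 ratios were 1.26 and 1.04 for Cd40, 1.37 and 1.03 for Tnfsf11, and 1.54 and 1.24 for Tnfrsf11a in young and adult mice. After median-of-ratios scaling 1 gene of the list passed in adult mice, against 4.41% of all genes. The summed osteoclast markers were also higher in both injured libraries, and their part in the levels of Tnfsf11 and Tnfrsf11a was not tested.

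Of 34 genes taken as known NF-κB targets, 17 were 2-fold higher after injury in young mice, against 4.57% of all genes. In adults 20 were higher, against 6.9%, and 15 were higher at both ages, against 3.01%. None was lower. The list was chosen with earlier results of these data known, so these counts describe it and cannot serve as a test of enrichment. After median-of-ratios scaling 16 passed in young mice and 18 in adults, against 4.36% and 4.41% of all genes. The list medians were 1.01 and 1.26, and Csf2 was listed at 0 throughout. Mmp13, encoding the main collagenase of cartilage, was at 25.3 FPKM in young sham and 473.7 in young injured cartilage, and 21.2 and 518.2 in adult sham and adult injured cartilage. Mmp3, encoding stromelysin, was at 4.99, 151.5, 41.2 and 673.4 FPKM. The log2 ratios in young mice were 4.17 for Mmp13 and 4.67 for Mmp3. Mmp9, encoding a gelatinase also made by neutrophils and osteoclasts, was at 66.5, 227.4, 40.6 and 201.3 FPKM.

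Named here are the 6 of the 15 with the highest mean level, and the other 3 of these encode inflammatory proteins. Lcn2, encoding lipocalin 2, was at 64.6, 639.2, 82.7 and 2117 FPKM. Saa3, encoding an acute phase protein, had a young sham level of 0.072 FPKM and injured levels of 24.6 in young mice and 94.9 in adults, and was listed at 0 in adult sham. Ccl2, encoding a monocyte chemoattractant, was at 0.095, 34.1 and 13.0 FPKM in the same libraries and was also listed at 0 in adult sham, so no ratio is given for either in adult mice. Of the 33 targets above 0, the log2 ratio was larger in adult mice for 22, as for 66.3% of all genes, and for 20 after median-of-ratios scaling, as for 49.3% of all genes. The part of macrophages, neutrophils, osteoclasts and fibroblasts, whose marker sums were higher after injury, in the levels of the targets was not tested.

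**Figure D5:**
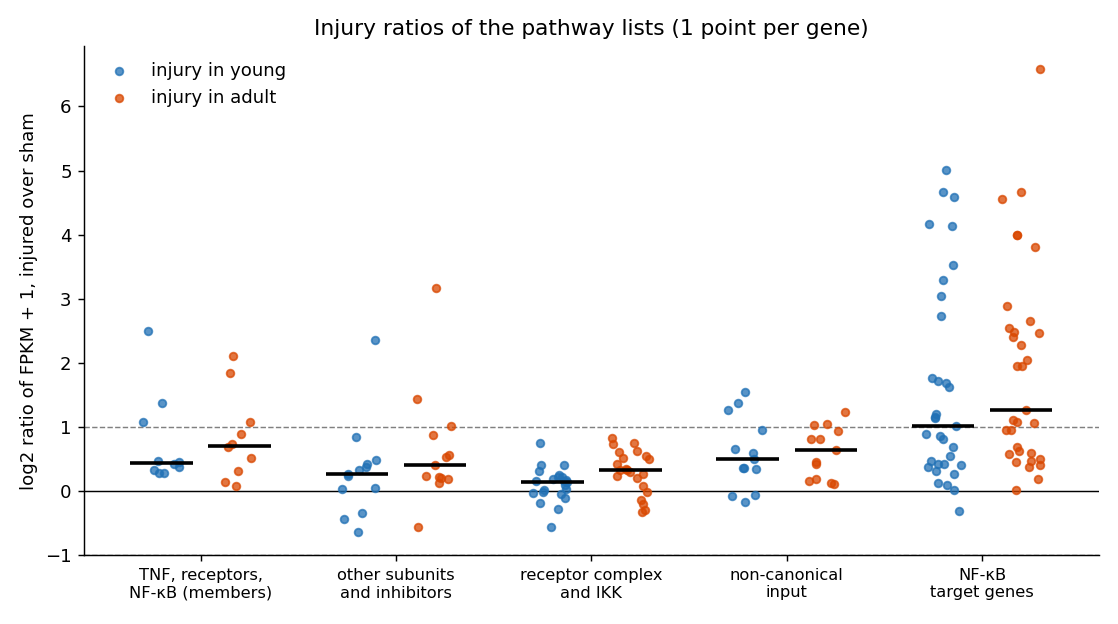
Log2 ratio of FPKM + 1 in injured over sham cartilage for every gene above 0 of the 10 genes and of the 4 pathway lists, in young (blue) and adult (orange) mice, with black bars for list medians and dashed lines at 2-fold. The target list has medians of 1.01 and 1.26, and no gene of the receptor complex and IKK list reaches 2-fold.

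The profiles most like those of Tnf and Tnfaip3 over the 4 libraries were found by the Euclidean distance between log2(FPKM + 1) values centred on each gene's mean, among 13199 genes. For Tnf they were Cela1 at a distance of 0.0544, encoding an elastase-like protease, Slc2a6 at 0.0961, encoding a sugar transporter, and Robo4 at 0.1002, encoding an endothelial guidance receptor. For Tnfaip3 they were Ext1 at 0.0322, encoding a heparan sulfate polymerase, Plekhm1 at 0.0435, encoding a lysosomal adaptor, and Impa2 at 0.0520, encoding an inositol monophosphatase. Within a distance of 0.2 there were 26 genes for Tnf and 145 for Tnfaip3, and each distance rests on 4 values.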

How the data were processed

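Poly-A selected RNA of 4 pools of mouse cartilage was sequenced as paired-end, strand-specific libraries. The authors deposited FPKM per gene and library on mm10. The submitters' processing notes name HISAT2 2.1.0, HISAT, STAR, SAMtools and StringTie 1.3.4d without roles. No counts were used here, the values were not found to be multiples of whole reads for all genes, and depth is known only if the smallest step is 1 fragment. Counting error per gene therefore cannot be given.

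For 4 comparisons, log2 ratios were taken of FPKM + 1 with Python 3.11.15, numpy 2.4.6 and pandas 2.3.3, and 2-fold was the threshold. The calculation was tested on simulated data. No test was made, since each comparison set 1 library against 1 other, and a fit of injury over both ages, with the ages taken as replicates, was not run. Alternatives were pseudocounts of 0.1 and 5 FPKM, a filter of 1 FPKM, TPM, median-of-ratios and quantile scaling, and thresholds of 1.5-fold and 3-fold. Gene positions and promoters were from RefSeq (GRCm38), and overlaps and shared 31-base words from GENCODE transcripts; at most 1.81% of the words of a gene were shared with another gene.

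The 10 genes and all lists were chosen with earlier results of these data known. The genes named were the 10, those of each pathway list past 2-fold in both injury comparisons (the 6 with the highest mean if more) or 2-fold lower with a mean of at least 1 FPKM, of each marker list the 2 with the highest mean, with Adgre1 and Csf1r for macrophages, and the 3 genes nearest in profile to Tnf and Tnfaip3. The other marker lists are given mainly as sums, counts and medians. Trac of the T cell list was not analysed here, and the chondrocyte marker Cnmd was read under its older symbol Lect1.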

Additional observations from a re-analysis of the deposited data

Results flagged for a closer look

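None of the 10 genes moved in opposite directions at the 2 ages on the deposited scale. Several marker genes of other lists did so. They are given here for the most abundant markers of each list and for the list medians, with 1 library per group, and the differences were not tested. In injured over sham cartilage, the log2 ratio of Col2a1, the type II collagen gene, was −0.24 in young mice and 0.24 in adults, the latter turning to −0.10 after median-of-ratios scaling, so that the directions were then the same. That of Comp, a cartilage matrix gene, was 0.58 and −0.64. The globin gene Hbb-bs was at 2.88 and −5.09, and Hba-a2 at 0.89 and −0.35. The median of the 12 chondrocyte markers was −0.28 in young mice and 0.34 in adults, and the adult median was 0.00 after that scaling. The median of the 7 erythroid markers was 0.89 and −0.46.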

How the results depend on the processing

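No paired analysis was possible because each group was 1 library with no replicate number, and no library could be left out. Of 320 log2 ratios of the 10 genes over all alternatives, 284 kept their direction and their side of the threshold, though not their size (Tnf in young mice went from 1.37 to 2.98 with a pseudocount of 0.1 FPKM). Of the others 14 that were not called changed sign, and none that was called did. The filter and the thresholds of 1.5-fold and 3-fold leave the ratios as they are, so only the other settings could change a sign. These unchanged ratios are among the 320, so 284 overstates how many held where they could move. The count of the 10 genes higher after injury in adult mice was 2 instead of 3 with a pseudocount of 5 FPKM, at 3-fold and after median-of-ratios or quantile scaling. Of all genes, 2.43% were then higher at 3-fold, 4.41% after median-of-ratios and 3.99% after quantile scaling. No such share is given for the other pseudocounts, and those at 1.5-fold are given with the results above. Target counts ran from 10 to 23 in young mice (17) and from 11 to 25 in adults (20), and those of other subunits and inhibitors in adults from 1 to 5 (3). The counts that moved by over 1.5 times were these. With a pseudocount of 0.1 FPKM, 3 other subunits and inhibitors were higher in young mice (1 as reported) and 5 in adult mice (3), with 1 gene of the receptor complex in adult mice (0) and 5 and 7 of the non-canonical input (3 and 3). With a pseudocount of 5 FPKM, 1 of the 10 genes was higher in young mice (3) and 0 in adult sham (1), and the counts were 1 for other subunits in adult mice, 0 and 0 for the non-canonical input, and 10 and 11 for targets (17 and 20). With TPM, 1 of the 10 genes was lower in young injured against adult injured cartilage (0), against 3.44% of all genes. In adult mice 1 gene of the receptor complex was then higher and 5 of the non-canonical input, against 11% of all genes. After median-of-ratios scaling 3 of the 10 genes were higher in adult sham (1) and 1 gene of the non-canonical input in adult mice, and after quantile scaling 2 and 0. The shares of all genes higher in adult sham were 5.86% and 5.04% on these scales. At 1.5-fold, 6 of the 10 genes were higher in adult injury (3), 3 in adult sham and 3 lower in young injured against adult injured cartilage, with 3 other subunits in young mice, 1 and 5 of the receptor complex and 6 and 7 of the non-canonical input. At 3-fold, 1 of the 10 was higher in young mice, against 2.02% of all genes, and 0 in adult sham, against 1.01%. The counts at 3-fold were 1 for other subunits in adult mice and 0 and 0 for the non-canonical input. Apart from settings that move the threshold or the pseudocount, the cause was not tested. The filter of 1 FPKM left out none of the 10 genes. Of the 10 genes Tnf had the lowest level, at 0.168 FPKM in young sham, and fragments were estimated for Tnf alone.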
